A study of Mus musculus with 4 samples.

Results

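The redox and detoxification enzymes are the genes of the glutathione transferase, glutathione peroxidase, peroxiredoxin, thioredoxin, glutamate-cysteine ligase, glutathione reductase, aldo-keto reductase, aldehyde dehydrogenase, cytochrome P450, sulfotransferase, quinone oxidoreductase, superoxide dismutase, catalase and heme oxygenase families. They were matched by gene symbol, with 2 aldo-keto reductase genes, Akr1c12 and Akr1c13, set aside. The families were chosen with earlier results of these data known. The rule found 46 of the 6404 genes in the table, read by 69 probe sets. Other genes of these families are not analysed here.

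Expression was compared in the mouse line EML, which consists of lymphohematopoietic progenitors and needs stem cell factor (SCF) to grow. SCF binds KIT, a receptor tyrosine kinase. All cells had been transduced by retrovirus with a pLXSN vector carrying a KIT mutant, selected with geneticin, grown without growth factor into autonomous populations and sorted for the KIT variant, so every group shares this history and each mutant is 1 transduced population. The groups were KIT D816V with SCF, KIT D816V without SCF, KIT Del417-419insY with SCF and KIT Del417-419insY without SCF, with 1 array each and SCF given at 250 ng/mL for 48 h. D816V changes the kinase domain of the receptor and Del417-419insY its extracellular domain, and neither an untransduced nor a wild-type KIT culture is analysed here. How long the cultures without SCF were kept is unstated, so SCF and culture time cannot be told apart.

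Cells remove peroxides with catalase, with glutathione peroxidases that use glutathione, and with peroxiredoxins that use thioredoxin. Glutathione reductase and the thioredoxin reductases restore both carriers with NADPH. Glutathione transferases, sulfotransferases, aldehyde dehydrogenases, aldo-keto reductases and cytochromes P450 alter reactive or lipid-soluble compounds, and several family members also act on steroids or on leukotrienes, lipid mediators that mast cells release. Many of these genes respond to oxidant stress through the transcription factor NRF2, which binds the antioxidant response element in their promoters.

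Levels are log2 values, each probe set having its own zero, so a level is comparable between arrays but not between genes. The medians over all probe sets were -0.20 in D816V with SCF, -0.10 in D816V without SCF, -0.05 in Del417-419insY with SCF and -0.02 in Del417-419insY without SCF. Differences between the mutants were tested with limma over all 6404 genes, with SCF as a second term and a call at a Benjamini-Hochberg adjusted p under 0.05. With 1 array per group, the only residual of a gene is how far the SCF responses of the lines differ, with 1 degree of freedom. The fit pools it with a prior taken over all genes, with 4.10 degrees of freedom. Where the responses are nearly equal, the error of a gene is therefore set mostly by that prior. The p-values cover no repeat cultures. A standard error (SE) below is that of the mean difference in this fit.

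Between the mutants, 10 of the 46 genes were higher and 2 lower in D816V, which is 21.7% and 4.35% of them, against 17.9% and 24.7% of all genes. In either direction 26.1% of the 46 genes were called, against 42.6% of all genes. The largest increases were of Mgst2, Txnrd3, Cyp4f18, Cyp11a1 and Sult2b1, each 3.49-fold to 5.81-fold higher. The decreases were of Gstp3, 6.93-fold lower, and Gstm1, 2.40-fold lower. Gstm1 was read by 2 probe sets and each of the others named so far by 1, so their probe sets could not be compared. Among the 20 of the 46 genes with several probe sets, the mean difference had opposite signs between probe sets for 4. Nqo2 and Prdx4 were about 2-fold higher, and Gpx4, Aldh2 and Txndc5 were higher by smaller amounts. By size alone, 7 genes were 2-fold or more higher in D816V with SCF and 3 lower, against 6.34% and 7.42% of all genes. Without SCF 7 were higher and 1 was lower by that much, against 6.29% and 4.18% of all genes. Of these, 6 genes were 2-fold or more higher in D816V in both conditions and 1 was 2-fold or more lower in both, against 5.15% and 3.78% of all genes. The median difference of the 46 genes was 0.17 with SCF and 0.15 without, and that of all genes -0.14 and -0.08. The sign of the difference was the same in both conditions for 38 of the 46 genes, or 82.6%, and for 84.8% of all genes. For 17 of the 46, or 37%, the difference stayed within 0.4 in both conditions, as it did for 40.7% of all genes.

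**Figure D1:**
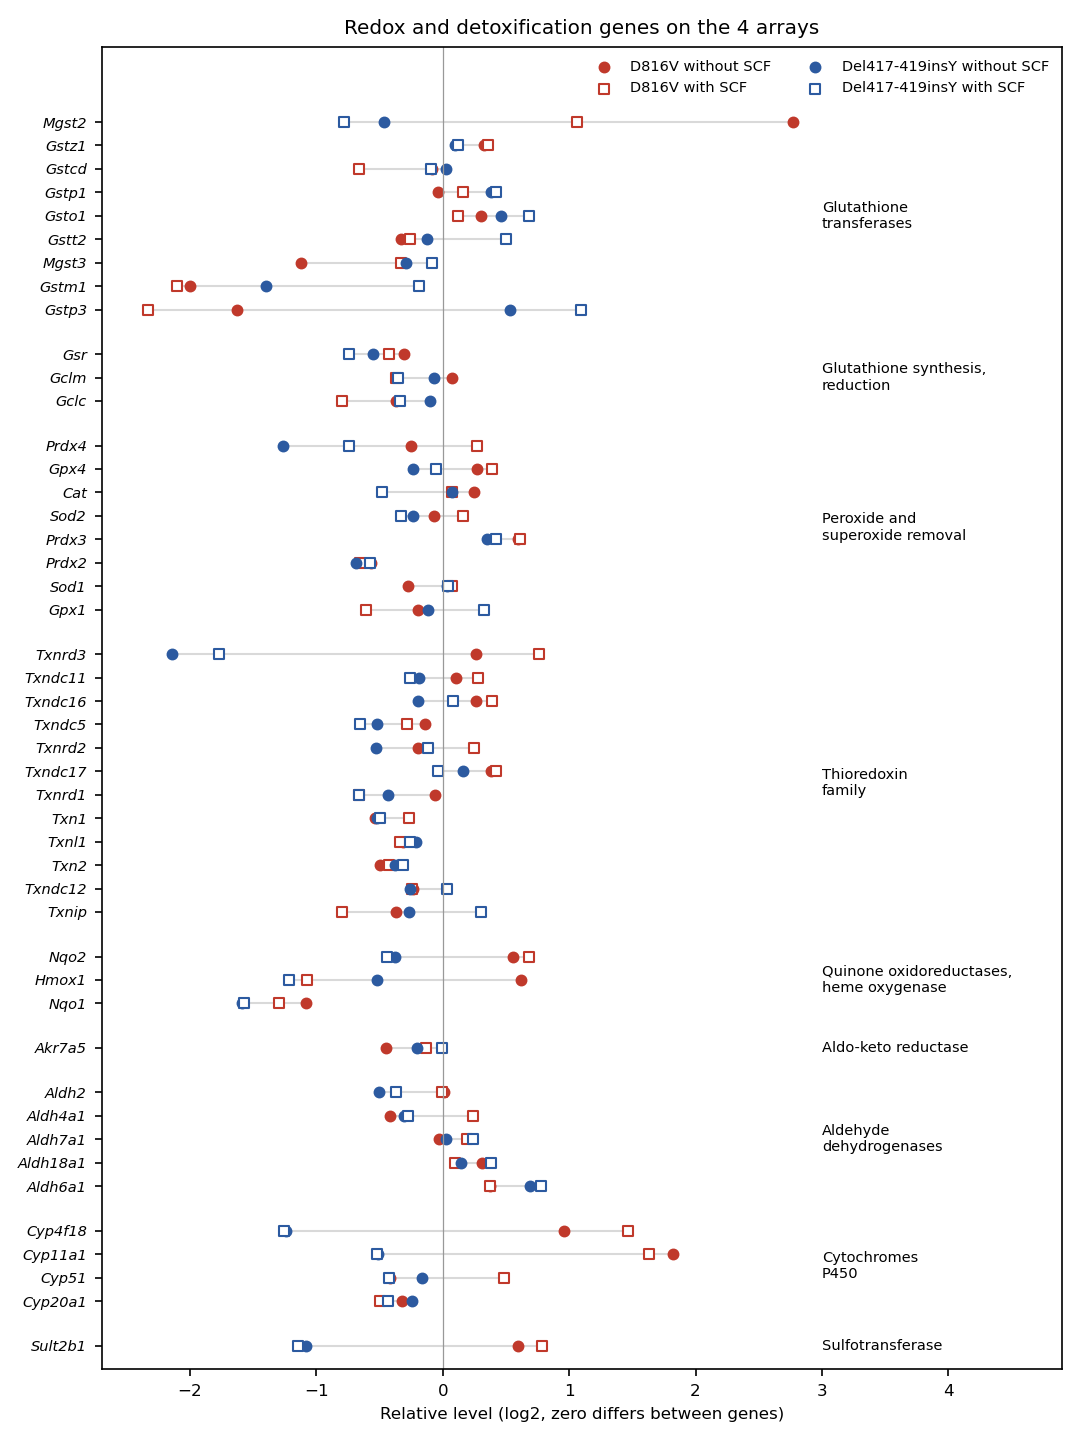
Relative level (log2, x axis, zero differing between genes) of each of the 46 genes on the 4 arrays, grouped by role. Red marks are D816V and blue marks Del417-419insY, filled circles are without SCF and open squares with SCF. Cyp4f18, Cyp11a1, Sult2b1, Txnrd3 and Mgst2 have both red marks right of both blue marks, and Gstp3 has both red marks left of them.

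The number of calls depended on how the arrays were scaled. Bringing the arrays to a common level gave 19 higher and 3 lower genes with quantile normalization, 20 and 3 with cyclic loess and 20 and 2 with centring on array medians. The same scalings raised the share of all genes called higher to between 23.8% and 26.9% and moved the median of all genes with SCF to between -0.00 and 0.04. All 3 scalings added the same 8 genes, Cat, Gsr, Hmox1, Nqo1, Sod2, Txndc11, Txndc16 and Txnrd2, each on the higher side. Of the 12 genes called on the deposited values, 9 were called in all 8 alternative settings in which every gene was kept. The exceptions were Gpx4, Aldh2 and Txndc5, which were lost without the SCF term, and Txndc5 was also lost under other settings. The remaining alternative left out genes under the 25th percentile of the mean. Gstp3, Gstm1, Txnrd3 and Prdx4 were among those left out, so they were not tested there.

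**Figure D2:**
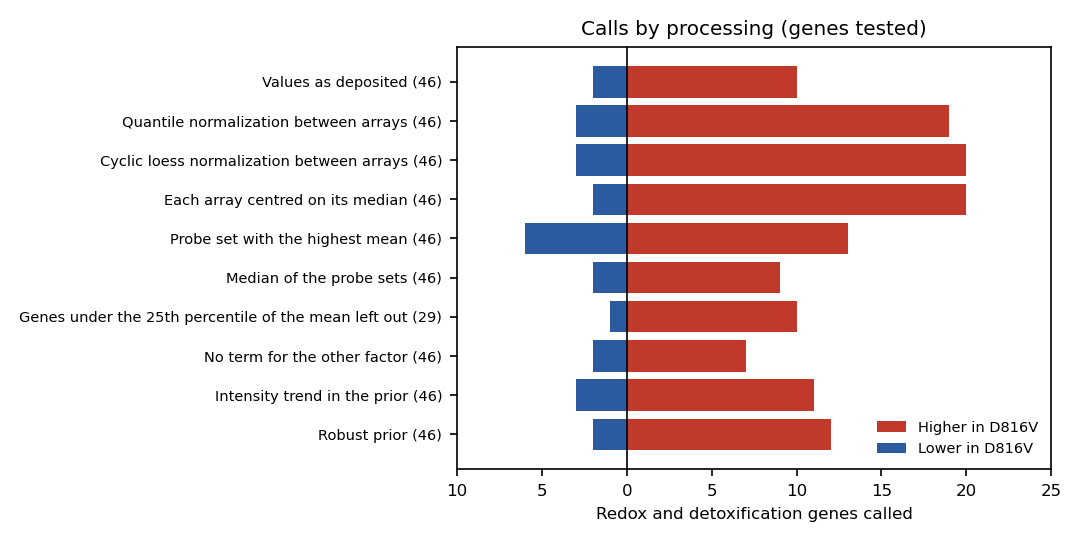
Number of the 46 genes called by limma as higher (red, right of 0) or lower (blue, left of 0) in D816V (x axis, genes) on the deposited values and under 9 alternatives, with the number of genes tested in parentheses. The deposited values give 10 higher and 2 lower genes, and quantile, cyclic loess and median scaling give 19 to 20 higher and 2 to 3 lower.

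**Figure D3:**
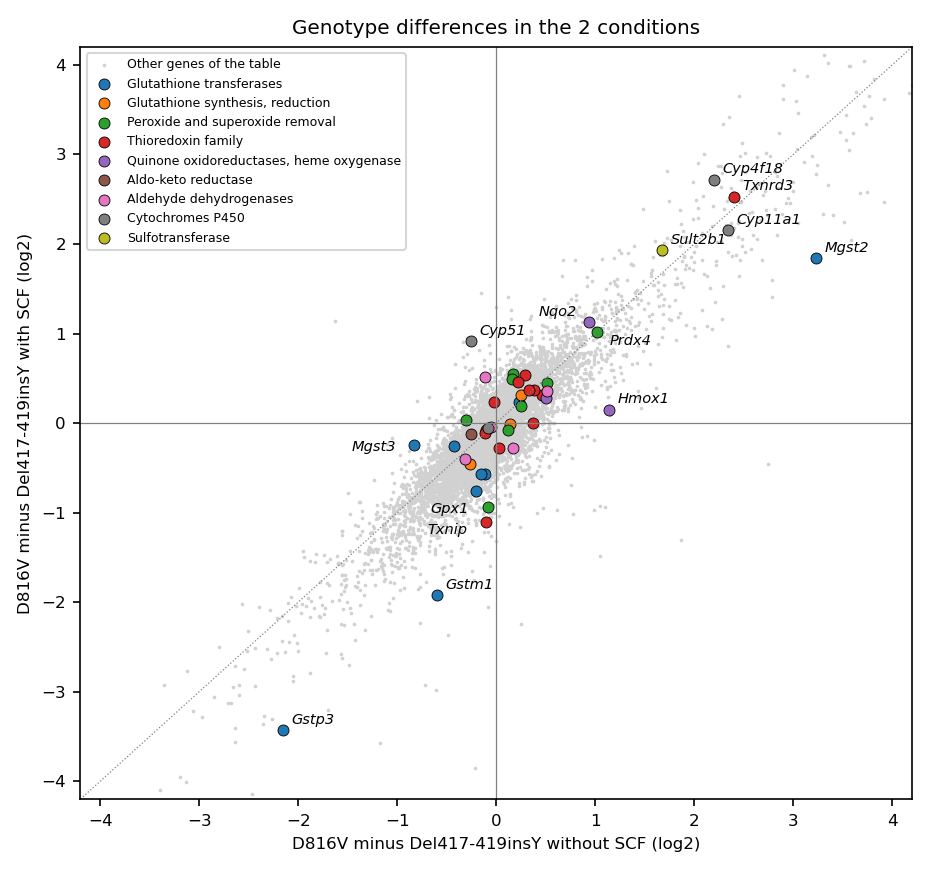
Difference D816V minus Del417-419insY with SCF (log2, y axis) against the same difference without SCF (log2, x axis). Coloured points are the 46 genes by role, grey points the other genes of the table, 43 of which lie outside the axes, and the dotted line marks equal differences. Cyp4f18, Txnrd3, Cyp11a1, Sult2b1 and Mgst2 lie at the upper right and Gstp3 at the lower left, while Hmox1 lies near 0 with SCF and Gstm1 is further from 0 with SCF.

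Promoter sequence is shown for some of the genes whose window held a motif of a factor known to act on these genes or in these cells. Windows of 300 bases, from 250 before to 50 after an annotated start, came from RefSeq on GRCm38.p6 and covered 39 of the 46 genes with 54 windows. Both strands were searched for 4 motifs. The core of the antioxidant response element was written TGACNNNGC. AP-1 factors bind TGACTCA, whose letters can overlap that core. STAT factors bind TTCNNNGAA. The site of GATA factors was written AGATAA. Of the genes higher in D816V, Mgst2 and Sult2b1 held TGACTCA, and Cyp4f18 and Txndc5 held TGACNNNGC, of which Cyp4f18 is printed for its larger difference. Gstp1, an uncalled transferase, also held TGACTCA. Gclm and Txnrd1, known NRF2 targets, held TGACNNNGC, and so did Sod1 and Txndc11. Capitals mark the motif as it reads on the strand of the gene.

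Mgst2 (chr3:51661092-51661168, plus strand): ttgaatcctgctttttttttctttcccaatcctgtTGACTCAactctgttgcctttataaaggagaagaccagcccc
Sult2b1 (chr7:45742588-45742664, minus strand): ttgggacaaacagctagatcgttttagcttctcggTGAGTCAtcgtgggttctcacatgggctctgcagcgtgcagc
Cyp4f18 (chr8:72009723-72009801, minus strand): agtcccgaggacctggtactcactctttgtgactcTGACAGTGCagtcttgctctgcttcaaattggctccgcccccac
Gstp1 (chr19:4037945-4038021, minus strand): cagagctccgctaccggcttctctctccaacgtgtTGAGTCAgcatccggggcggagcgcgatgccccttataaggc
Gclm (chr3:122245388-122245466, plus strand): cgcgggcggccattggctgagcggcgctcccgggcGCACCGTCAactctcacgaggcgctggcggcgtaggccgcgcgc
Txnrd1 (chr10:82859079-82859157, plus strand): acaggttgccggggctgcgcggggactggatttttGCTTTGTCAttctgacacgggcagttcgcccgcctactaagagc

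TGACTCA was found in 5.56% of the windows of these genes and 5.2% of all 32851 windows, and TGACNNNGC in 11.1% and 12.4%. TTCNNNGAA was found in 11.1% and 8.3%, and AGATAA in 1.85%, the single window of Cyp4f18, against 11.2%. The genes with TTCNNNGAA were Aldh18a1, Mgst2, Sod2, Txn2 and Txnrd1, of which Mgst2 was called, and no stretch is printed for that motif. A match describes the letters of the window and shows no binding.

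Of the 9 genes grouped by symbol as glutathione transferases, 1 was higher, 2 were lower and 6 were not called. Mgst2, a membrane enzyme that can make leukotriene C4, stood at 1.06 in D816V with SCF and 2.77 in D816V without SCF, against -0.78 and -0.46 in Del417-419insY. Both D816V arrays lay above both Del417-419insY arrays, and D816V without SCF was the highest. The mean difference was 2.54 (SE 0.33; limma adjusted p = 0.00499), and it was 1.84 with SCF and 3.23 without.

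Gstp3, a pi-class transferase, stood at -2.33 in D816V with SCF and -1.63 in D816V without SCF, against 1.10 and 0.53 in Del417-419insY. The mutants did not overlap, and the mean difference was -2.79 (SE 0.30; limma adjusted p = 0.00297). Gstp1, its close relative, had a mean difference of -0.34 and was not called. Cross-hybridisation between this pair was not tested.

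Gstm1, a mu-class transferase, stood at -2.10 in D816V with SCF and -2.0 in D816V without SCF, against -0.19 and -1.40 in Del417-419insY. The D816V arrays were close together and below both Del417-419insY arrays, which were far apart. The mean difference was -1.26 (SE 0.31; limma adjusted p = 0.0298), and with cyclic loess it was -0.65. Its pair of probe sets gave -1.28 and -1.24.

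Mgst3, a microsomal transferase with peroxidase activity, stood at -0.33 in D816V with SCF and -1.12 in D816V without SCF, against -0.09 and -0.29 in Del417-419insY. D816V without SCF was the lowest array, and the other 3 lay close together, with both Del417-419insY arrays on top, although the difference with SCF, -0.24, was 0.12 with cyclic loess. The mean difference of -0.53 was not called (limma adjusted p = 0.0582). Of the remaining uncalled genes, Gstt2, a theta-class enzyme, had a mean difference of -0.48 and Gsto1, an omega-class enzyme, one of -0.36. Gstcd, placed in this group by its symbol, had -0.34, and Gstz1, which acts in tyrosine breakdown, had 0.23. The mean difference was below 0 for 7 of the 9 genes in this group, and none of the 9 changed sign under the 3 scalings. On the deposited values these 7 were below 0 in both conditions. So were 3154 of all 6404 genes, with 2278 above 0 in both.

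None of the 3 genes that the rule placed under glutathione synthesis and reduction was called, and 1, Gsr, was higher under each scaling. Gss, glutathione synthetase, falls outside the rule and was counted in a list below. It was called higher in D816V, by 0.40 on average (SE 0.11; limma adjusted p = 0.0427). Gclc, the catalytic subunit of the first and rate-limiting step of glutathione synthesis, stood at -0.80 in D816V with SCF and -0.37 in D816V without SCF, against -0.34 and -0.10 in Del417-419insY. Both D816V arrays lay below both Del417-419insY arrays, D816V without SCF only just, and the mean difference of -0.36 was not called (limma adjusted p = 0.0642). Gclm, its modifier subunit, had a mean difference of 0.06, and its pair of probe sets gave 0.29 and -0.17. Gsr, which reduces oxidised glutathione, stood at -0.42 in D816V with SCF and -0.31 in D816V without SCF, against -0.74 and -0.56 in Del417-419insY. Its D816V arrays lay above the Del417-419insY arrays by 0.28 on average (limma adjusted p = 0.0997).

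Among the 8 genes that remove peroxide and superoxide, 2 were higher and none was lower, and 4 to 5 were higher under the scalings. Prdx4, the peroxiredoxin of the endoplasmic reticulum, stood at 0.27 in D816V with SCF and -0.25 in D816V without SCF, against -0.74 and -1.27 in Del417-419insY. Both D816V arrays were above both Del417-419insY arrays. The difference was 1.01 with SCF and 1.02 without, with a mean of 1.01 (SE 0.11; limma adjusted p = 0.00328). Gpx4, which reduces lipid peroxides in membranes, was higher by 0.48 on average (SE 0.11; limma adjusted p = 0.0273), and its pair of probe sets gave 0.47 and 0.48.

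Gpx1, the main cytosolic glutathione peroxidase, stood at -0.61 in D816V with SCF and -0.20 in D816V without SCF, against 0.32 and -0.12 in Del417-419insY. The difference was -0.93 with SCF and -0.08 without, and under each scaling the second was above 0, between 0.01 and 0.05. The mean of -0.51 was not called (limma adjusted p = 0.117). Cat, catalase, Sod2, the mitochondrial superoxide dismutase, and Prdx3, the mitochondrial peroxiredoxin, had mean differences of 0.36, 0.33 and 0.22 and were not called. The mean over probe sets hid opposite signs for Prdx2, a cytosolic peroxiredoxin abundant in red cells, and for Sod1, the cytosolic dismutase. The pair of Prdx2 probe sets gave 0.66 and -0.62, and the 3 of Sod1 lay between -0.61 and 0.25.

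The thioredoxin family, grouped by symbol, had 2 of 12 genes higher and none lower, and 6 higher under each scaling. Txnrd3, a reductase of thioredoxin and glutathione best known from testis, stood at 0.76 in D816V with SCF and 0.26 in D816V without SCF, against -1.77 and -2.14 in Del417-419insY. The D816V arrays were far above the Del417-419insY arrays in both conditions. The difference was 2.53 with SCF and 2.40 without, with a mean of 2.47 (SE 0.12; limma adjusted p = 0.000286). Txnrd2, the mitochondrial reductase, stood at 0.25 in D816V with SCF and -0.20 in D816V without SCF, against -0.12 and -0.53 in Del417-419insY. The mutants overlapped across conditions, while within each condition D816V was higher, by 0.365 with SCF and 0.33 without. Neither the mean difference of Txnrd2, 0.35, nor that of the cytosolic Txnrd1, 0.19, was called.

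Txndc5, a disulfide isomerase of the endoplasmic reticulum, was higher by 0.38 (SE 0.11; limma adjusted p = 0.0495), just inside the threshold. Txndc16 and Txndc11, further proteins with thioredoxin domains, had differences of 0.39 and 0.41 just outside it (limma adjusted p = 0.0503 and 0.0510). Txnip, which binds and inhibits thioredoxin, stood at -0.80 in D816V with SCF and -0.37 in D816V without SCF, against 0.30 and -0.27 in Del417-419insY. The difference was -1.10 with SCF and -0.10 without, the second reaching 0.05 with cyclic loess, and the mean of -0.60 was not called (limma adjusted p = 0.103). Thioredoxin itself, Txn1, had a mean difference of 0.10.

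Among the 3 quinone oxidoreductases and heme oxygenases, Nqo2 was higher. Nqo2, a quinone reductase, stood at 0.69 in D816V with SCF and 0.55 in D816V without SCF, against -0.44 and -0.38 in Del417-419insY. The mutants did not overlap, and the mean difference was 1.03 (SE 0.12; limma adjusted p = 0.00385), with its 3 probe sets between 0.73 and 1.46. Nqo1, the NADPH-dependent relative and a standard NRF2 target, stood at -1.30 in D816V with SCF and -1.08 in D816V without SCF, against -1.58 and -1.59 in Del417-419insY. Its D816V arrays were above both Del417-419insY arrays by 0.39 on average (limma adjusted p = 0.0552), and by 0.64 with quantile normalization and 1.0 with cyclic loess.

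Hmox1, the inducible enzyme that breaks down heme, stood at -1.07 in D816V with SCF and 0.62 in D816V without SCF, against -1.22 and -0.52 in Del417-419insY. D816V without SCF stood apart above the other 3 arrays, and the mutants overlapped. The difference was 0.15 with SCF and 1.14 without, and its mean of 0.65 was not called (limma adjusted p = 0.0875). All 3 genes were called higher under each of the 3 scalings.

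Of the 4 cytochromes P450, 2 were higher and none was lower. Cyp11a1, the mitochondrial enzyme that cleaves the cholesterol side chain to start steroid synthesis, stood at 1.63 in D816V with SCF and 1.82 in D816V without SCF, against -0.52 and -0.51 in Del417-419insY. The Del417-419insY arrays were nearly equal and far below the D816V arrays. The mean difference was 2.25 (SE 0.12; limma adjusted p = 0.000379).

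Cyp4f18, which hydroxylates leukotriene B4 in mouse neutrophils, stood at 1.47 in D816V with SCF and 0.96 in D816V without SCF, against -1.25 and -1.24 in Del417-419insY. The mutants were again clear of each other, by a mean of 2.46 (SE 0.16; limma adjusted p = 0.000645). Cyp51, lanosterol demethylase of cholesterol synthesis, stood at 0.49 in D816V with SCF and -0.42 in D816V without SCF, against -0.43 and -0.16 in Del417-419insY. D816V with SCF stood apart above the other arrays, and the difference between mutants was 0.91 with SCF and -0.26 without. Cyp20a1, a P450 without a well-known substrate, stood at -0.49 in D816V with SCF and -0.32 in D816V without SCF, against -0.44 and -0.24 in Del417-419insY, and the sign of its mean difference of -0.07 changed under scaling.

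Sult2b1, which sulfonates cholesterol and other steroids, stood at 0.79 in D816V with SCF and 0.60 in D816V without SCF, against -1.14 and -1.08 in Del417-419insY. Both D816V arrays were above both Del417-419insY arrays, by a mean of 1.80 (SE 0.13; limma adjusted p = 0.000817). Papss2, which makes the sulfate donor of the sulfotransferases, was also higher in D816V, by 2.25 on average (SE 0.22; limma adjusted p = 0.00231).

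Of the 5 aldehyde dehydrogenases, Aldh2 was higher and none was lower. Aldh2, the mitochondrial enzyme that clears acetaldehyde, stood at -0.01 in D816V with SCF and 0.01 in D816V without SCF, against -0.37 and -0.50 in Del417-419insY. The D816V arrays were nearly equal and above the Del417-419insY arrays by 0.43 on average (SE 0.12; limma adjusted p = 0.0384). Aldh6a1, of valine breakdown, stood at 0.38 in D816V with SCF and 0.37 in D816V without SCF, against 0.78 and 0.69 in Del417-419insY; it was lower on both D816V arrays but was not called (limma adjusted p = 0.0571). The aldo-keto reductase Akr7a5, which reduces aldehydes, stood at -0.14 in D816V with SCF and -0.45 in D816V without SCF, against -0.01 and -0.20 in Del417-419insY. The mutants overlapped, the sign with SCF changed under each scaling, and the mean difference of -0.19 was not called.

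For SCF, none of the 46 genes and none of the 6404 was called by limma (0% of all genes), and an unadjusted p under 0.05 was reached by 10 of the 46, or 21.7%, and by 18.5% of all genes. By size, 2 of the 46 genes were 2-fold or more lower with SCF in D816V and none was higher, against 1.31% and 0.328% of all genes. In Del417-419insY 1 of the 46 was 2-fold or more higher with SCF and none was lower, against 0.328% and 0.547% of all genes. The median SCF difference of the 46 genes was 0.01 in D816V and 0.03 in Del417-419insY, and that of all genes -0.05 and 0.03.

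The pair of genes lower by 2-fold or more with SCF in D816V was Hmox1 and Mgst2. The level of Hmox1 with SCF minus that without was -1.69 in D816V and -0.70 in Del417-419insY, the smallest adjusted p of the 46 genes in limma (0.150). With the arrays centred on their medians the mean difference was -1.13 (limma adjusted p = 0.0196), and Prdx4 was then also called, at 0.59 (limma adjusted p = 0.0428). For Mgst2 the difference was -1.71 in D816V and -0.32 in Del417-419insY.

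Other differences had the same sign in both lines without a call. Prdx4 was 0.52 higher with SCF in D816V and 0.53 higher in Del417-419insY. The reductases Txnrd3 and Txnrd2 were 0.50 and 0.44 higher with SCF in D816V and 0.38 and 0.41 higher in Del417-419insY. Mgst3 was 0.79 higher in D816V and 0.20 higher in Del417-419insY. Txnrd1, Gclm and Gclc had SCF differences of -0.60, -0.44 and -0.43 in D816V. In Del417-419insY they were -0.23, -0.29 and -0.24. The probe sets of Gclc gave -0.72 and -0.15 in D816V and -0.52 and 0.05 in Del417-419insY. Those of Txnrd1 gave -0.99 and -0.22 in D816V. Nqo1 had -0.21 in D816V and 0.02 in Del417-419insY, and both signs depended on the scaling. A level lower by 0.2 or more with SCF in both lines was seen in 5 of the 46 genes, or 10.9%, and in 12.1% of all genes. A level higher by as much in both lines was also seen in 5, against 9.99% of all genes. The SCF difference had the same sign in both lines for 29 genes, or 63%, and for 65.5% of all genes.

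**Figure D4:**
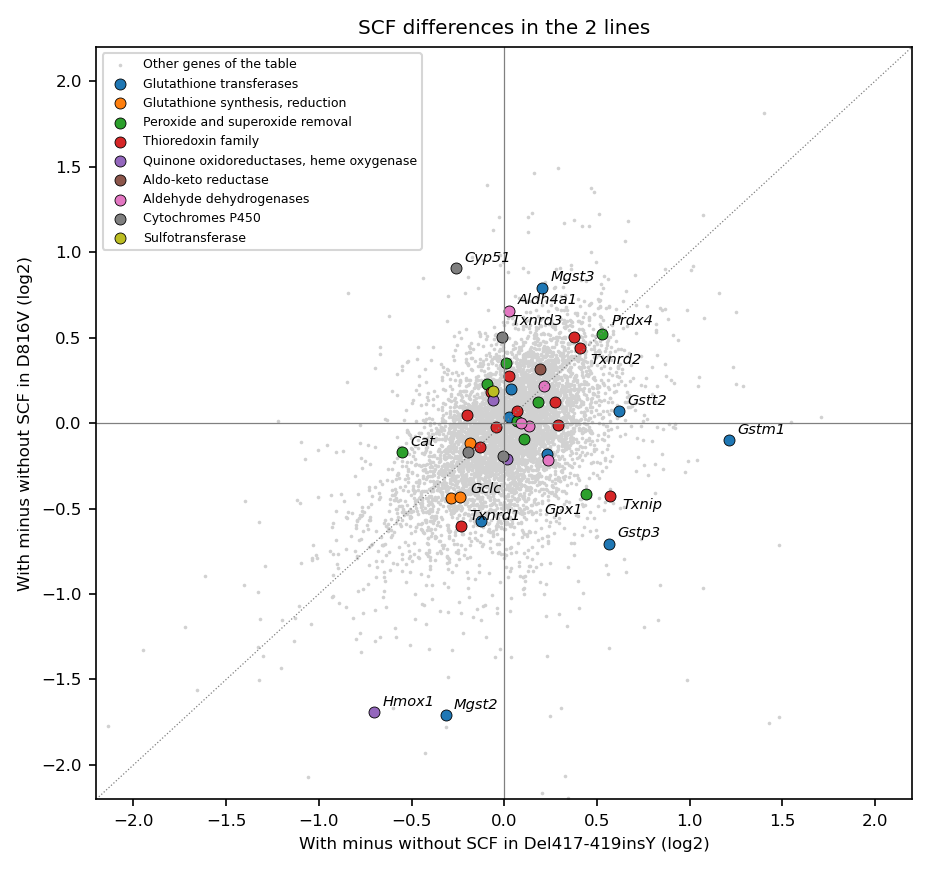
Difference with minus without SCF (log2) in D816V (y axis) against that in Del417-419insY (x axis). Coloured points are the 46 genes by role, grey points the other genes of the table, 1 of which lies outside the axes, and the dotted line marks equal differences. Hmox1 and Mgst2 lie lowest among the 46 genes, and Gstp3, Txnip and Gpx1 lie at the lower right, with a negative difference in D816V and a positive one in Del417-419insY.

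The SCF differences of the lines were unlike for some genes, with 1 array per value and no test. Gstm1 was 1.21 higher with SCF in Del417-419insY and was the gene past 2-fold there. Its difference of -0.10 in D816V was 0.36 with quantile normalization and 0.25 with cyclic loess, so its sign in D816V depended on the scaling. Gstp3, Txnip and Gpx1 had SCF differences of -0.71, -0.43 and -0.41 in D816V and of 0.56, 0.57 and 0.44 in Del417-419insY. These 3 genes, 6.52% of the 46, moved by 0.4 or more in opposite directions, against 0.781% of all genes. That count was 0 with quantile normalization and 1, Gstp3, with cyclic loess or centring, against 0.562% to 0.734% of all genes, although the signs of these 3 genes stayed opposite under each scaling. Cyp51 had 0.91 in D816V and -0.26 in Del417-419insY.

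Further genes of the same pathways were counted in lists, beside 17.9% of all genes called higher and 24.7% called lower. Of 6 measured regulators of NRF2, 1 was higher in D816V and 2 were lower. Cul3, the scaffold of the ligase that degrades NRF2, was lower by a mean difference of -1.03 (limma adjusted p = 0.00385), and Bach1, a repressor at NRF2 sites, by -0.70 (limma adjusted p = 0.0139). Mafg, a DNA-binding partner of NRF2, was higher by 0.75 (limma adjusted p = 0.00930). The genes of NRF2 and of its inhibitor KEAP1 are not analysed here.

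Of 12 measured genes that supply glutathione or NADPH, 2 were higher and 2 lower. Idh2 and Nnt, mitochondrial sources of NADPH, differed by -0.78 and -0.64, and Pgls, of the pentose phosphate pathway, by 0.50. The other gene called higher was Gss, at 0.40. Of 18 other thiol repair and redox genes, 4 were higher and 1 was lower. Ero1a, which oxidises disulfide isomerases in the endoplasmic reticulum, differed by 1.04, Selenos, a selenoprotein of the same compartment, by 0.76, and Srxn1, which repairs overoxidised peroxiredoxins, by 0.68.

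Of 7 measured oxidant producers, 3 were higher and 2 lower. Ncf1, a subunit of the phagocyte NADPH oxidase, differed by 3.77 (limma adjusted p = 0.000136), whereas Mpo, myeloperoxidase, and Ptgs2, cyclooxygenase-2, differed by -1.64 and -1.50. Of 11 other detoxification genes, 4 were higher and 1 was lower. Arnt2, a partner of the aryl hydrocarbon receptor family, differed by 5.33 and Abcb1b, a drug efflux pump, by 1.02. Of 10 heme and iron genes, 2 were higher and none was lower, with the metallothionein Mt2 at 2.82 and Cpox, of heme synthesis, at 0.75. Together 16 of the 64 genes on these lists were higher and 8 lower, against 17.9% and 24.7% of all genes. The scalings gave 26 to 27 higher and 7 to 9 lower, against 23.8% to 26.9% and 19.7% to 21.7% of all genes.

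**Figure D5:**
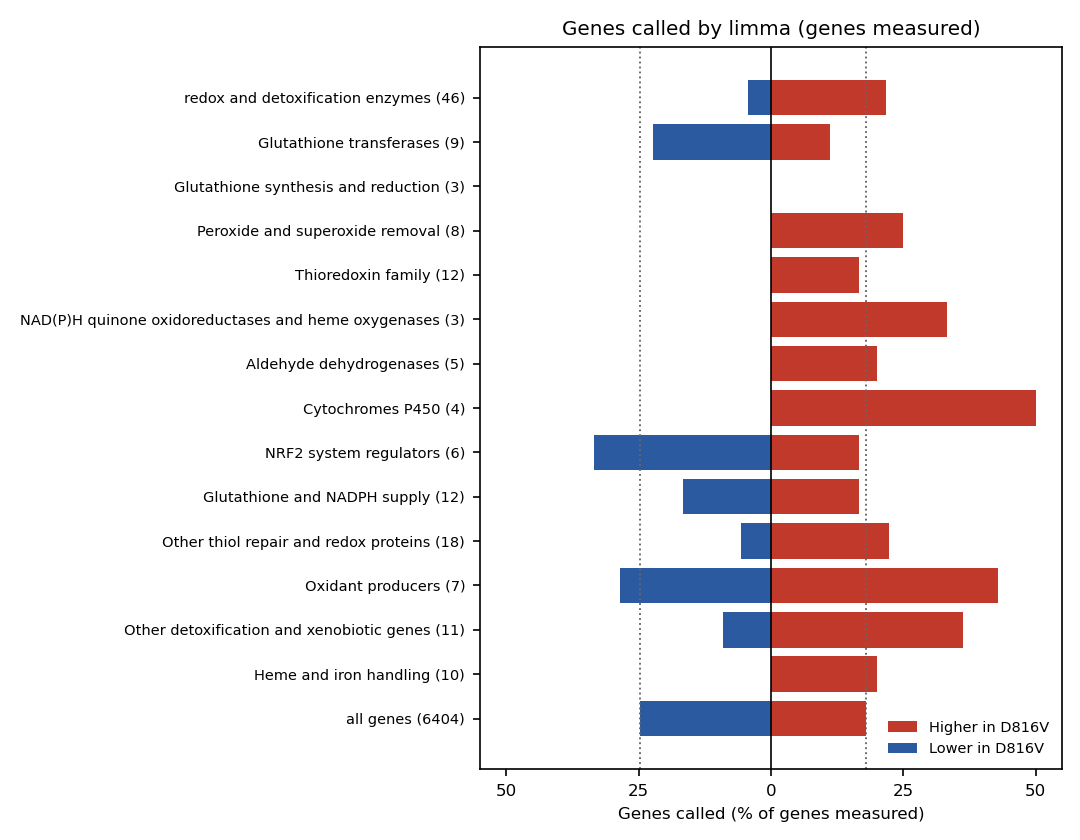
Share of measured genes (x axis, %) called by limma as higher (red, right of 0) or lower (blue, left of 0) in D816V, for the 46 genes, their role groups with 3 or more genes, the pathway lists and all genes, with the number measured in parentheses. Dotted lines mark the shares of all genes, 17.9% higher and 24.7% lower. The 46 genes reach 21.7% and 4.35%.

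The lines also differed in markers of cell types. Of all genes, 17.9% were called higher in D816V and 24.7% lower. Of 15 measured mast cell markers, 11 were higher in D816V and 1, Kit, was lower. Their mean relative level was 0.47 in D816V with SCF and 1.25 in D816V without SCF, against -1.20 and -0.87 in Del417-419insY. Of 8 progenitor markers 2 were higher and 6 lower, of 9 erythroid markers 2 and 4, and of 7 neutrophil and monocyte markers 1 and 3. Some genes were counted in more than 1 list. Kit and Gata2 were both mast cell and progenitor markers, and Mpo was both a progenitor and a neutrophil marker. The single lymphoid marker, Satb1, was lower and was also counted among the progenitor markers. No hepatocyte or epithelial marker was measured. Relative levels do not show which markers are absent. The part of these markers in the differences of the redox and detoxification genes was not tested, and fewer cells of a type cannot be told apart from less RNA per cell.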

How the data were processed

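RNA of 4 EML cultures was hybridised to Affymetrix M430 2.0 arrays, 1 per group. The log2 values were made by the authors with RMA before they deposited them, per the submitters' processing notes (version not stated), and lie relative to an unstated zero for each probe set. The base is taken from RMA. It holds 10861 probe sets, kept by an unstated filter, so shares refer to these. The number of arrays limits the precision, and signal over background was not examined here, so the planned filter could act only on relative values.

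Symbols came from the platform annotation, checked through gene IDs against RefSeq GRCm38.p6 (11 IDs without a match): 9633 probe sets had 1 symbol, 264 several and 964 none. Only the first kind was used, and probe sets of 1 gene were averaged. limma 3.58.1 (R 4.3.3; lmFit, eBayes) fitted genotype and SCF to all 4 arrays, two-sided, with 1 residual degree of freedom and a prior of 4.10. The fit was tested on simulated data, and the outcome is not reported here. Differences of single arrays were counted at 2-fold without a test. Alternatives were 3 scalings over all probe sets, another summary of probe sets, a filter, and other terms or priors.

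Members, role groups and lists were chosen with earlier results of these data known. Values on all arrays are given for the 12 genes with the largest mean genotype difference, the 6 with the largest SCF difference of the same sign in both lines, the 6 with the largest difference between SCF responses, and the highest and lowest of each role group. In each list, up to 3 called genes are named by size, and Gss is named in addition.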

Additional observations from a re-analysis of the deposited data

Results flagged for a closer look

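For 3 genes, SCF went with differences of at least 0.4 on the log2 scale in opposite directions in the mutants. The SCF difference in D816V minus that in Del417-419insY was -1.27 for Gstp3, -1.0 for Txnip and -0.85 for Gpx1. Each value rests on 1 array per group and the difference was not tested. With quantile normalization none of the 3 kept 0.4 or more in both lines, since the differences in D816V were -0.36, -0.24 and -0.25, and with cyclic loess or centring Gstp3 did.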

How the results depend on the processing

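Against 12 of the 46 genes called between the mutants on the deposited values, 22 were called with quantile normalization, 23 with cyclic loess, 22 with centring on array medians and 19 with the probe set of highest mean, where 13 were higher and 6 lower. For SCF, none was called on the deposited values, 2 with centring and 1, Hmox1, with the probe set of highest mean (limma adjusted p = 0.0341). The median difference between mutants with SCF, 0.17 on the deposited values, was 0.28 with quantile normalization, 0.35 with cyclic loess, 0.32 with centring and 0.31 when genes under the 25th percentile of the mean were left out, and that without SCF, 0.15, was 0.24 with centring. That filter left 29 genes, of which 5 were 2-fold apart between the mutants with SCF (10 of all 46) and 4 without SCF (8 of all 46), while with SCF 1 gene differed 2-fold in D816V (2 of all 46) and 0 genes in Del417-419insY (1 of all 46). Prdx2 changed to -0.62 with the probe set of highest mean, against 0.02, because its probe sets have opposite signs. Under scaling, 6 genes with mean differences of at most 0.13 in size changed sign. Over all genes, the calls higher and lower in D816V were 1147 and 1579 on the deposited values, 1526 and 1387 with quantile normalization, 1628 and 1263 with cyclic loess and 1720 and 1302 with centring, and 1603 in all without the SCF term. All-gene calls for SCF were 0, and 2, 42 and 256 under these scalings, 256 with the probe set of highest mean and 10 with an intensity trend. Among the lists, heme and iron had 5 genes called under each scaling and 4 with the filter (2 on the deposited values), other thiol repair 8 with quantile normalization or centring (5), glutathione and NADPH supply 7 with centring and 2 without the SCF term (4), and oxidant producers 2 with the filter (5). No replicate could be left out, since each group has 1 array and the fit has 1 residual degree of freedom. No paired analysis was possible because no group has a second replicate.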

Other observations

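The peroxiredoxin Prdx1, an abundant cytosolic member of its family, was read by 4 probe sets that the annotation assigns to Prdx1 and Gm21399 together, so it was kept out of the counts. Their differences D816V minus Del417-419insY lay between 0.14 and 0.41 with SCF and between -0.33 and -0.08 without SCF.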
